A study of Mus musculus with 6 samples.

Results

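A set of 30 macroglial marker genes, 16 of astrocytes and 14 of the oligodendrocyte lineage, was read out in cultured mouse microglia to describe what signal genes of other brain cells gave on these arrays. The genes were given by name, and every one of the 30 had exactly 1 probe set that the platform annotation assigns to that single gene. These are 30 of 35557 probe sets, or 30 of 19938 genes with such a probe set. The study profiled primary microglia from fosB-null mice, which carry the null allele fosBG on both copies of Fosb and were backcrossed to C57BL/6J for 20 generations, and from C57BL/6J wild-type mice. Each group had 3 Affymetrix whole-transcript arrays, called biological replicates 1 to 3 in the labels. In both groups the cells came from the cerebral cortex of mice aged 2 days, were isolated after 10 days of culture, replated for 24 h and harvested with no further treatment. The labels do not say whether a replicate is 1 mouse, 1 litter or 1 culture, so p-values measure the spread between these arrays, which may be technical. The null allele is constitutive and is not restricted to microglia.

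Astrocytes supply neurons with metabolites, take up glutamate and potassium, and couple to each other through gap junctions. Oligodendrocytes arise from progenitors and wrap axons in myelin, a membrane rich in a small number of abundant proteins. Microglia are the resident macrophages of the brain and are usually shaken off or detached from a mixed glial layer, in which astrocytes and oligodendrocyte progenitors also grow. RNA of those cells in a microglial sample would show as signal of their defining genes.

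Signals are deposited log2 values, and the percentile rank of a probe set is the percentage of all probe sets on the same array with a lower signal. Probe sets differ in how brightly they report the same amount of RNA, so a rank places a signal on the array and does not measure an amount of transcript. The arrays had medians of 7.76 to 7.92. As a reference for signal without expression, 1030 probe sets of olfactory receptor genes were used, which are not part of the identity of any cell considered here. Their 95th percentile was 7.34 and their 99th percentile 8.21, above 39.6% and 56.4% of all probe sets. The 90th percentile was 7.05, and 170 vomeronasal receptor probe sets gave a lower limit, with a 95th percentile of 6.56. In bulk RNA, fewer cells of a type and less RNA per cell cannot be told apart.

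The arrays carried a strong microglial signal and a low signal for most of the 30 genes. Of 15 measured microglial markers, 15 lay above the 99th percentile of the reference, with a median rank of 98.2% and a range of 64.7% to 99.8%. Csf1r, the receptor that microglia need to survive, ranked at 99.1%, the fractalkine receptor gene Cx3cr1 at 98.2% and Itgam, which encodes CD11b, at 95.5%. Aif1, which encodes the marker Iba1, ranked at 73.9% and the purinergic receptor gene P2ry12 at 64.7%. The 16 astrocyte markers had a median rank of 38.3% and ranged from 17.2% to 57.1%. The 14 oligodendrocyte lineage markers had a median rank of 42.4% and ranged from 21.3% to 83.7%. For comparison, 16 neuronal genes had a median rank of 37.3% and ranged from 13.8% to 51.5%. All probe sets with a gene had a median rank of 53.9%. Above the 99th percentile of the reference lay 4 of the 30 genes, or 13.3%, against 47.9% of all probe sets with a gene. These 4 were Mbp, Cnp, Cspg4 and Aldh1l1. Above the 95th percentile lay 15 of the 30, against 64.1%. This count depends on the limit. It was 23 of the 30 against 70.4% at the 90th percentile, and 26 of the 30 against 80.3% at the vomeronasal limit. Only Aqp4, Gjb6, Enpp6 and Ugt8a had means below all of these limits. Ranks below 50% were found for 22 of the 30 genes.

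**Figure D1:**
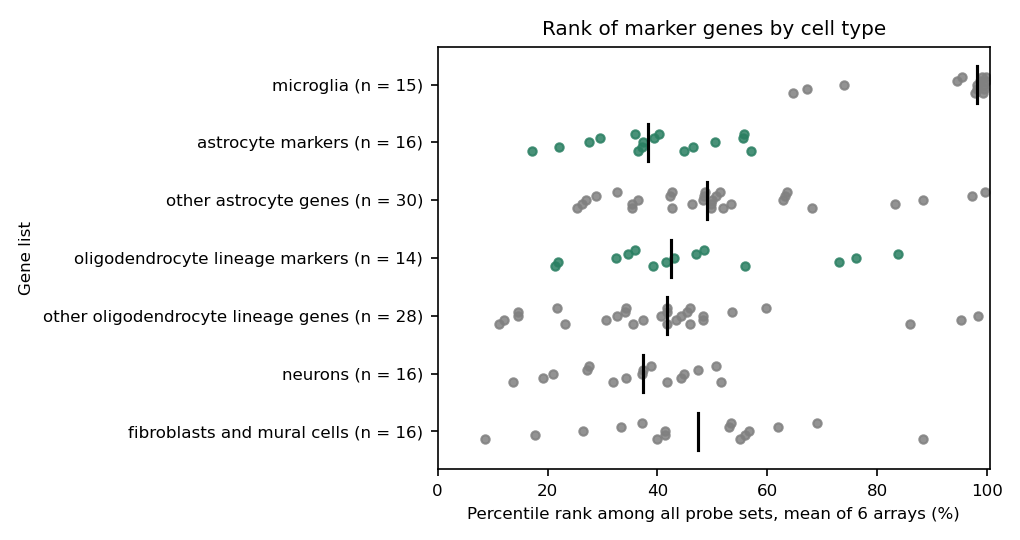
Each point is the percentile rank of 1 gene among all probe sets, averaged over 6 arrays, and each black bar is the median of its list. The 16 astrocyte and 14 oligodendrocyte lineage markers are green, and 15 microglial markers sit above 64%. None of the 16 astrocyte markers exceeds 57.1%. Oligodendrocyte lineage markers reach 83.7%, other astrocyte genes 99.6% and other oligodendrocyte lineage genes 98.4%, so the lists overlap with the microglial one.

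The filament and calcium-binding markers of astrocytes had means below the 95th percentile of the olfactory receptors and above their 90th. Gfap, the intermediate filament protein by which astrocytes are most often identified, had log2 signals of 7.08, 7.21 and 7.24 in wild-type replicates 1, 2 and 3 and the same 3 values in fosB-null replicates 1, 2 and 3. S100b, a calcium-binding protein of astrocytes and some oligodendrocytes, had 6.94, 7.38 and 7.26 in both groups. Gfap ranked between 35.1% and 37.3% and S100b between 32.2% and 39.3% over the 6 arrays. The means were 7.18 and 7.19, and S100b crossed the 95th percentile in replicate 2 of both groups. Both means were also above the vomeronasal limit.

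Of the 6 membrane transport genes, 5 had means below the 95th percentile of the olfactory receptors. At their 90th percentile this held for Aqp4 and Slc4a4, and at the vomeronasal limit for Aqp4 alone. Aqp4, the water channel of astrocyte endfeet, gave 6.50, 6.29 and 6.61 in both groups, with ranks of 18.3% to 23.9%. Slc1a2 and Slc1a3, which encode the glutamate transporters GLT-1 and GLAST, ranked between 35.4% and 39.0%. Slc1a2 had signals of 7.17, 7.30 and 7.22 and Slc1a3 of 7.09, 7.36 and 7.26, again alike in both groups. The bicarbonate cotransporter gene Slc4a4 had a mean of 6.78. Mlc1, a membrane protein of endfeet, had 7.26, 7.29 and 7.42 in wild-type replicates 1, 2 and 3 and 7.26, 7.34 and 7.37 in their fosB-null counterparts, close to the 95th percentile. Atp1b2, a subunit of the sodium pump, was the exception, with 7.69, 7.97 and 7.93 against 7.69, 7.97 and 7.91. All 6 of its values lay between the 95th and 99th percentiles.

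The gap junction genes that couple astrocytes had means below the 90th percentile of the olfactory receptors, and Gjb6 was also below the vomeronasal limit. Gja1, which encodes connexin 43, had 6.84, 6.90 and 6.91, and Gjb6, which encodes connexin 30, had 5.84, 6.50 and 6.08. Both genes were under the 95th percentile in all 6 arrays. The SD of Gjb6 was 0.335 and that of Gja1 0.0401 (n = 3 in each group), so replicates of 1 group differed more in Gjb6.

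All 6 enzymes, secreted proteins, transcription factors and receptors had means above the 95th percentile of the reference. Aldh1l1, a folate enzyme widely used to mark astrocytes, had 8.28, 8.31 and 8.20 in both groups. Its mean, 8.27, lay just above the 99th percentile of the reference, with 1 array of each group below it. Aldoc, a glycolytic aldolase, had 8.13, 8.17 and 8.17 in wild-type and 8.13, 8.17 and 8.19 in fosB-null replicates 1, 2 and 3. Sox9, a transcription factor of astrocytes, had 8.14, 8.06 and 8.32 in both groups, 1 array of each above the 99th percentile. Fgfr3, a fibroblast growth factor receptor, and Ntsr2, a neurotensin receptor, had means of 7.58 and 7.66. Clu, which encodes the secreted chaperone clusterin, had 7.33, 7.32 and 7.46 in both groups. Its mean, 7.37, lay just above the 95th percentile, with only replicate 3 of each group above it. By their means, 7 of the 16 astrocyte genes passed the 95th percentile, 1 the 99th, and 0 had a rank above 75%.

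**Figure D2:**
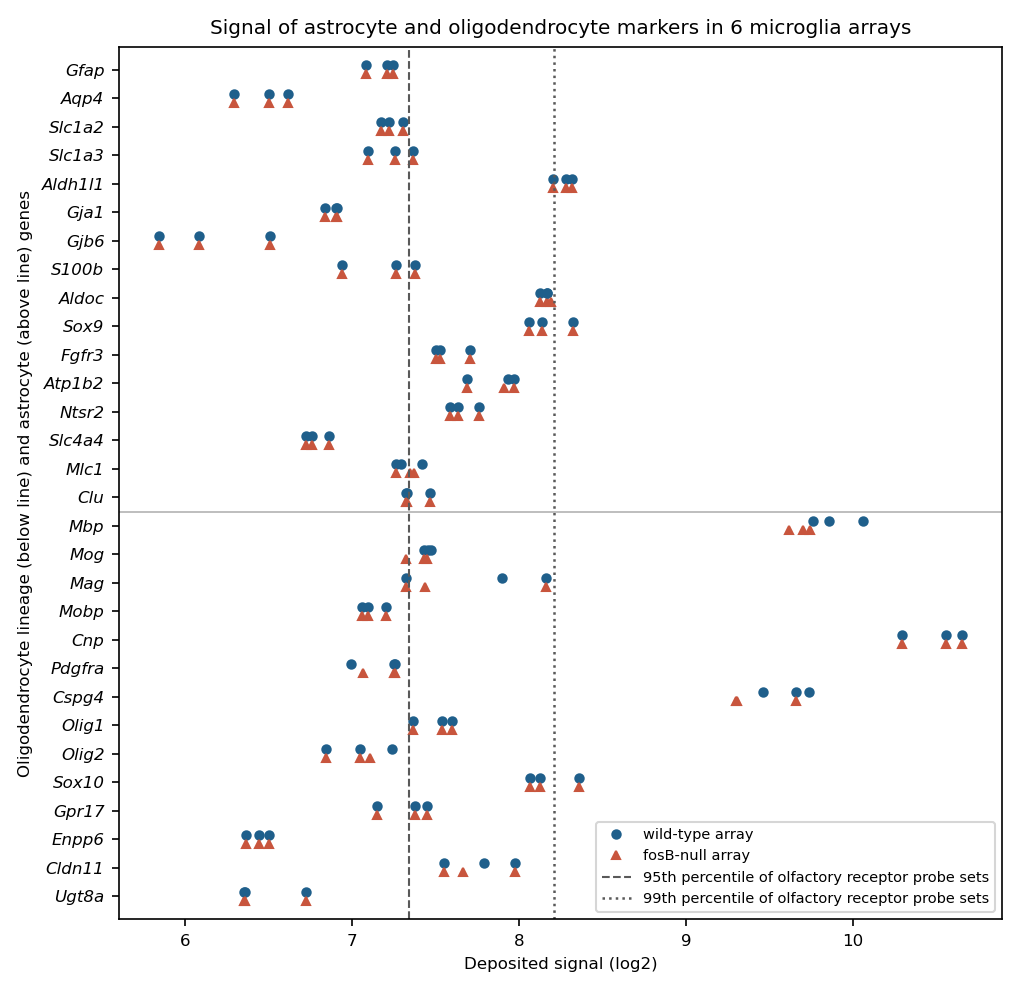
Deposited log2 signal of each marker gene on every array (circles wild-type, triangles fosB-null, 3 arrays each), with dashed and dotted lines at the 95th and 99th percentiles of 1030 olfactory receptor probe sets. Cnp, Mbp and Cspg4 lie to the right of both lines on all 6 arrays, and in most rows the circles and triangles coincide.

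Progenitor genes of the oligodendrocyte lineage diverged from each other. Pdgfra, the growth factor receptor that defines the progenitors, had 6.99, 7.25 and 7.25 in wild-type and 7.07, 7.25 and 7.25 in fosB-null arrays. Cspg4, which encodes the proteoglycan NG2 of progenitors and pericytes, had 9.66, 9.74 and 9.46 in wild-type and 9.30, 9.31 and 9.66 in fosB-null arrays. Pdgfra stayed below the 95th percentile of the olfactory receptors, with a mean above their 90th, and Cspg4 was above their 99th in all 6 arrays, ranking between 69.7% and 75.6%. The lineage transcription factors had means below the 99th percentile. Olig1 had 7.36, 7.54 and 7.60 and Sox10 had 8.13, 8.36 and 8.06 in both groups. Olig2 had 7.05, 7.24 and 6.84 in wild-type and 7.05, 7.11 and 6.84 in fosB-null arrays, all under the 95th percentile. Genes of the stages after the progenitor also had means under it, 7.32 for Gpr17, a receptor of committed precursors, and 6.43 for Enpp6, an enzyme of newly formed oligodendrocytes.

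Of the 7 myelin genes, 2 lay above the 99th percentile of the reference on all 6 arrays and 5 had means below it. Cnp, which encodes a phosphodiesterase of myelin and is also expressed outside it, had 10.56, 10.65 and 10.29 in both groups and the highest ranks of the 30 genes, 82.3% to 84.4%. Mbp encodes myelin basic protein and, from an upstream start, the golli proteins known from immune cells. Its signals were 10.06, 9.86 and 9.76 in wild-type replicates 1, 2 and 3 and 9.74, 9.62 and 9.70 in their fosB-null counterparts. A probe set gives 1 value and does not separate the transcript forms of a gene. The other 5 had means of 7.43 for Mog and 7.72 for Mag, 2 proteins of the myelin surface, 7.12 for Mobp, 7.75 for the tight junction gene Cldn11 and 6.48 for Ugt8a, which makes the myelin lipid galactosylceramide. Whether the Cnp, Mbp and Cspg4 signals came from oligodendrocyte lineage cells, pericytes or microglia was not tested.

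Further genes of both lineages gave signals on both sides of the reference. Of 30 other astrocyte genes 8 lay above the 99th percentile of the reference, and of 28 other oligodendrocyte lineage genes 4 did. These are 26.7% and 14.3%, against 47.9% of all probe sets with a gene. Above the 95th percentile lay 22 of the 30, or 73.3%, and 16 of the 28, or 57.1%, against 64.1%. Ranks above 75% were found for 4 of these astrocyte genes, Vim at 99.6%, Glul at 97.3%, Pla2g7 at 88.3% and Fabp7 at 83.3%. Among the oligodendrocyte lineage genes they were Trf at 98.4%, Sirt2 at 95.2% and Qdpr at 85.9%. Vim, Glul and Qdpr were chosen for naming after their values were seen. Vimentin, glutamine synthetase and transferrin, the products of Vim, Glul and Trf, are made by many cell types. Which cells gave the signals of these genes, or of Pla2g7, Fabp7, Sirt2 and Qdpr, was not tested. Of 16 neuronal genes 0 and of 16 fibroblast and mural cell genes 4 were above the 99th percentile of the reference, the latter with a median rank of 47.3%.

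Exact ties between same-numbered arrays shaped most of these values. Wild-type and fosB-null replicate 1 held exactly the same deposited value for 25 of the 30 genes, replicates 2 for 26 and replicates 3 for 23. These are 83.3%, 86.7% and 76.7% of the genes, against 62.3%, 54.7% and 56.0% of all probe sets with a gene. Between arrays of different number, 12 pairings in all, 0 of the 30 genes had identical values, and at most 3 of all probe sets did. In 20 of the 30 genes, or 66.7%, all 3 pairs were tied, against 27.8% of the 23410 probe sets with a gene. A further 6 genes were tied in 2 pairs and 2 genes in 1 pair, and Mbp and Cspg4 in none. For these 20 genes the 6 arrays hold 3 distinct values, and a difference of 0 is not a measurement of equal expression. No step that would make such ties is given in the sources used here.

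Ties covered 44 of 48 pair values of the astrocyte genes, or 91.7%, and 30 of 42, or 71.4%, of the oligodendrocyte lineage genes, with no test of the difference. The corresponding shares were 36 of 48 pair values for neuronal genes, 64.6% for fibroblast and mural cell genes, 53.3% and 72.6% for the other astrocyte and oligodendrocyte lineage genes, and 26.7% for microglial genes. The share also fell with signal. Of all probe sets with a gene, 76.5% of pair values were tied in the dimmest decile and 31.4% in the brightest. The fourth decile, with signals of 7.07 to 7.52, held 11 of the 30 genes and had 72.8% of its pair values tied, against 28 of 33, or 84.8%, for the 11. Cnp was an exception at high signal. It was tied in all 3 pairs in a decile where 8.16% of probe sets were.

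**Figure D3:**
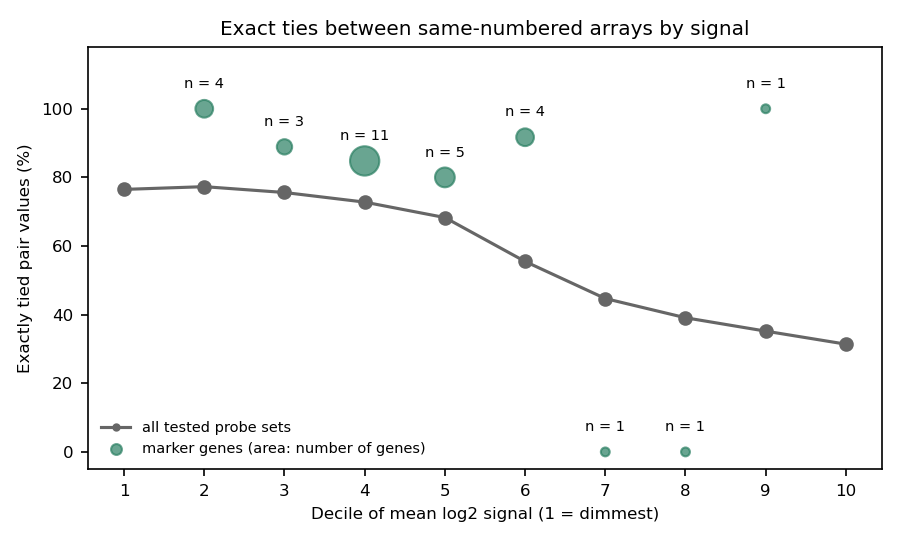
Percentage of pair values that are exactly tied, over 10 deciles of mean log2 signal, for all tested probe sets (grey line) and for the marker genes in each decile (green, with their number). The line falls from 76.5% to 31.4%, and the marker genes of deciles 2 to 6 lie above it. Deciles 7, 8 and 9 hold 1 marker gene each, at 0%, 0% and 100%.

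In limma without a block for replicate number, 0 of the 30 genes differed between fosB-null and wild-type arrays at an adjusted p under 0.05. At an unadjusted p under 0.05 the count was also 0. The 20 genes tied in all 3 pairs had a difference of 0 and could not be called, so both counts rest on the other 10. Of all 23410 tested probe sets, 6510 likewise had no difference. Over all 23410, 1 was called, or 0.00427%, and 169, or 0.722%, reached the unadjusted threshold. A count of 0, among 30 or among 10, is near that background. The median difference was 0.00 in both lists and over all tested probe sets. Of the 10 genes with a difference other than 0, 7 had a lower and 3 a higher mean in fosB-null arrays, against 9657 lower and 7243 higher over all tested probe sets. When single arrays were left out, 7 of these 10 changed sign, all but Mbp, Cspg4 and Mog. Such a fit breaks a pair, so the spread between replicate numbers enters the difference. With both arrays of 1 number left out, Mlc1 alone changed sign, and the other genes kept theirs or fell to 0. Fosb itself differed by -0.12 with a standard error of 0.10 (limma unadjusted p = 0.249, adjusted p = 1), and by -0.19, -0.09 and -0.09 in pairs 1, 2 and 3. Whether its probe set lies inside the stretch that the null allele changes could not be read from the files, so this is no check of the labels. The summed linear signal of the 16 astrocyte genes was 2700, 2870 and 2890 in wild-type and 2700, 2880 and 2880 in fosB-null replicates 1, 2 and 3.

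Mbp had the lowest unadjusted p of the 30 genes. Wild-type arrays averaged 9.89 ± 0.15 and fosB-null arrays 9.69 ± 0.06 (SD over 3 arrays). The difference was -0.21, with a 95% confidence interval of -0.43 to 0.02 (limma unadjusted p = 0.0664, adjusted p = 1). The difference was -0.32, -0.24 and -0.06 in pairs 1, 2 and 3. All 3 fosB-null values lay below all 3 wild-type values, which was so for 1 of the 30 genes and for 1.12% of tested probe sets. When replicate number was fitted as a random block, the limma unadjusted p of Mbp was 0.00419 and the adjusted p 0.232. That fit called 0.201% of probe sets and 0 of the 30 genes, and 2255 of 23410 probe sets had an unadjusted p under 0.05. It takes 1 correlation between same-numbered arrays from all tested probe sets, exact ties included. The standard error of Mbp was 0.0464 in it and 0.0946 without a block. Fitted as a fixed block, replicate number gave Mbp an unadjusted limma p of 0.0816 and an adjusted p of 0.674.

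Cspg4 varied within both groups and changed direction between pairs. Wild-type arrays averaged 9.62 ± 0.14 and fosB-null arrays 9.42 ± 0.21 (SD over 3 arrays). The difference was -0.20, with a confidence interval of -0.50 to 0.10 (limma unadjusted p = 0.159, adjusted p = 1). It differed by -0.36 and -0.43 in pairs 1 and 2, where fosB-null was lower, and by 0.20 in pair 3, where it was higher. Without both arrays of number 1, 2 or 3 the difference was -0.12, -0.08 or -0.39, with limma unadjusted p of 0.54, 0.637 and 0.00457, and each adjusted p was 1. Of the 30 other astrocyte genes, 13 had a lower and 10 a higher mean in fosB-null arrays, and 7 had no difference. The 2 with the lowest p, picked for that, were lower in pairs 1 and 2 and higher in pair 3. Pla2g7, a secreted lipase, differed by -0.58, -1.28 and 0.28, and Fabp7, a fatty acid binding protein of radial glia, by -0.22, -0.87 and 0.12, both with a limma adjusted p of 1.

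The remaining differences rested on few pairs. Mag differed by -0.46 in pair 1 and was tied in pairs 2 and 3. Its wild-type signals were 7.90, 8.16 and 7.32 and its fosB-null signals 7.44, 8.16 and 7.32, so replicates 2 and 3 of either group lay further apart than the group means. The confidence interval of its difference was -0.83 to 0.52, the widest of the 30. Mag is the only one of the 30 genes on the chromosome of Fosb, 265 measured genes away. Mog differed by -0.15 in pair 1, Olig2 by -0.13 in pair 2 and Cldn11 by -0.12 in pair 3. Olig2 and Cldn11 were tied in their other pairs, and Mog was tied in pair 2. Pdgfra differed by 0.07 in pair 1 alone. Over all 16 untied pair values of the 30 genes, 12 were lower and 4 higher in fosB-null arrays, and 5 of the 12 came from Mbp and Cspg4. Over all tested probe sets 57.7% of the untied pair values were lower. Aldoc, Atp1b2 and Mlc1 were the only ones of the 16 astrocyte genes with any difference, and the largest in a pair was 0.054, in Mlc1.

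**Figure D4:**
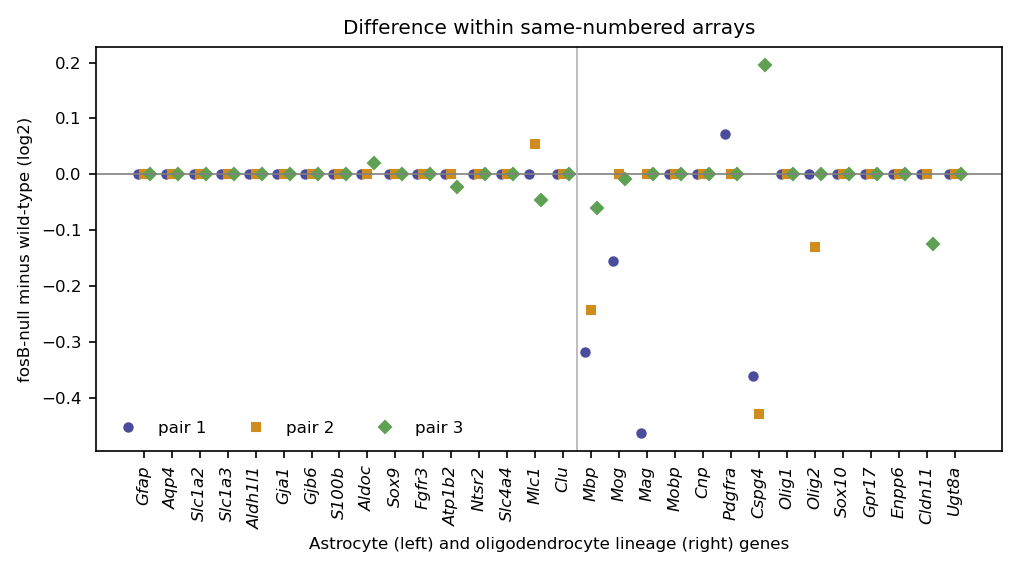
Difference in log2 signal, fosB-null minus wild-type, within each same-numbered pair of arrays, for astrocyte (left) and oligodendrocyte lineage (right) genes. Most points lie exactly at 0, Mag reaches -0.46 in pair 1, and Cspg4 is below 0 in pairs 1 and 2 and at 0.20 in pair 3.

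The summed linear signal of the 14 oligodendrocyte lineage genes was 5160, 5430 and 4560 in wild-type and 4700, 5050 and 4610 in fosB-null replicates 1, 2 and 3, so the groups overlapped. Without Mbp, Cnp and Cspg4 it was 1780, 2040 and 1730 against 1700, 2020 and 1710. For 29 of the 30 genes the 95% interval of the difference lay within a 1.5-fold change in either direction, and Mag was the exception. The 29 include the 20 fully tied genes. For these 20 genes the width of that interval comes from the spread between replicate numbers alone, since the pairs add no difference. Their intervals are centred on a 0 that the ties set, so they do not bound an effect of genotype. None of the genes in the other 5 lists was called either. Their lowest unadjusted p was 0.0876 for the other astrocyte, 0.203 for the other oligodendrocyte lineage, 0.487 for the neuronal, 0.124 for the fibroblast and mural cell and 0.313 for the microglial genes.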

How the data were processed

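The deposited values are log2 signals, 1 per probe set and array, and the submitters' processing notes name Expression Console as the authors' software. The sources used here give neither its version nor the summary method or normalization. That the scale is log2 follows from the range of the values. No detection call was used. In the platform's annotation 21789 probe sets had 1 gene symbol, 1621 had more than 1 and 12147 had no symbol. The members and lists were chosen with earlier results of these data known.

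FosB-null arrays were set against wild-type arrays in limma 3.58.1 (R 4.3.3; eBayes, two-sided, no block, no filter) over the 23410 probe sets with a symbol, with Benjamini-Hochberg adjustment and a threshold of 0.05. After subtraction of group means, arrays of number 1, 2 and 3 correlated with their counterpart at 0.911, 0.821 and 0.82 over the tested probe sets. Each number thus marks a pair, as read from the values and not from the labels. Exact ties, in 62.3%, 54.7% and 56.0% of these probe sets, enter the correlations. They therefore do not show whether the pairing came from the experiment or from the processing. A tie is an exactly equal deposited value. Alternatives were the replicate block, fixed or random, other scalings, filters and eBayes settings, other reference limits, and fits without single arrays or pairs. The text names all 30 markers, Fosb, 5 microglial genes and up to 2 genes of lowest p in each other list (astrocyte, oligodendrocyte lineage, neuronal, fibroblast and mural). Among the neuronal genes these were Syp and Elavl3, differing by 0.09 and -0.06, among the fibroblast and mural genes Igfbp5 and Igfbp4, by -0.33 and 0.13, and among the other oligodendrocyte lineage genes Sirt2 and Trf, by -0.15 and -0.06. Some listed genes are not reported here. The number of arrays limits the precision.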

Additional observations from a re-analysis of the deposited data

How the results depend on the processing

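None of the 30 genes was called under any alternative run on it. Leaving out the dimmest 40% of probe sets tested 12 of the 30, and the other alternatives tested all. The count over all tested probe sets was 1 as reported, 0 with the replicate block, 47 with the replicate block as a random effect, 0 without both arrays of any 1 number, and 1 to 2 with single arrays left out, the 2 without wild-type replicate 3. Signal over background limits the statements on level. The number of genes above the reference was 15 at the 95th percentile of olfactory receptors, 23 at the 90th, 4 at the 99th and 26 against vomeronasal receptors, and the median rank was 35.5% among single-symbol probe sets in place of 39.8%. Counting values within 0.01 as tied gave 83.3% of pair values in place of 82.2%.

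Of 10 genes with a difference, 7 changed sign somewhere. Aldoc was -0.0132 after quantile normalization of the arrays and -0.0171 after centring on their medians. Mlc1 was -0.0152 and -0.0215 there. Centring moves every gene alike, by -0.024, and quantile normalization moved the median of all tested probe sets by -0.0168, both more than these differences of 0.0068 and 0.0025, so those sign changes come from the scaling. Mlc1 was also -0.0031 with array weights, and the cause of this was not tested. Without both arrays of number 2 it was -0.0231. This follows from its pair differences, since 0.054 in pair 2 was left out and 0.0 and -0.046 in pairs 1 and 3 remained. A fit without a single array breaks a pair, so the spread between replicate numbers enters the difference. Gjb6, tied in all 3 pairs, ranged from -0.181 to 0.181 in such fits. With single arrays left out the differences of the 7 genes ranged as follows.
Aldoc ranged from -0.0071 to 0.0240. Atp1b2 ranged from -0.0962 to 0.0769. Mlc1 ranged from -0.0283 to 0.0499. Mag ranged from -0.4148 to 0.0299. Pdgfra ranged from -0.0616 to 0.0857. Olig2 ranged from -0.1432 to 0.0545. Cldn11 ranged from -0.1644 to 0.0613.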
